A study of Mus musculus with 4 samples.

Results

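Genes for cytokines, chemokines and their receptors were followed in RNA of the hippocampal CA1 field. Members were the spots annotated with 1 gene symbol that begins with Il, Ccl, Cxcl, Ccr or Cxcr and a digit, or with Tnfsf or Tnfrsf. They came to 245 of the 16281 spots of the table and 134 of its 10698 named genes. By role they were 29 interleukins and antagonists, 31 interleukin receptor subunits and binding proteins, 32 chemokine ligands, 15 chemokine receptors, 9 ligands of the tumour necrosis factor (TNF) superfamily and 17 of its receptors. The 1 remaining gene, Il4i1, matches the pattern but encodes an enzyme that oxidises amino acids, and Il1rapl2 among the receptors encodes a neuronal relative of the interleukin 1 receptor family.

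All mice were young C57BL/6J males that received MK-801, a blocker of the NMDA type of glutamate receptor, at a labelled dose of 300 micrograms per g body weight. The MK group had the drug alone. The MK C+S group had it 1 h before contextual fear conditioning, which paired 2 min in an unfamiliar box with a foot shock of 1 s at 0.5 mA, given 3 times. CA1 RNA taken 1, 2, 4 and 6 h after the last shock was hybridised to 1 array per time, with MK labelled green (Cyanine-3) and MK C+S red (Cyanine-5) on each. Neither the number of animals per RNA sample nor pooling is given in the sources used here, and no group without MK-801 was used here.

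Cytokines are secreted signals between cells. Interleukins act through paired receptor chains that mostly use JAK kinases and STAT factors or, for the interleukin 1 family, the adaptor MyD88. Chemokines steer cells through receptors coupled to G proteins, and ligands of the TNF superfamily act through receptors that recruit TRAF adaptors or death domains. In brain tissue most of these messages are scarce. Microglia, astrocytes, vessel cells and some neurons are their main sources, and interleukin 1 beta, interleukin 6 and TNF are known to influence synaptic plasticity in the hippocampus.

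Each value below is a log ratio of the dyes, read as log10 and centred on the array's median, so that 0.301 is a 2-fold difference. Values above 0 were taken as higher RNA in MK C+S, the red channel over the green, which is likely, but neither the direction nor the log base is stated. Spots at exactly 0 were treated as not measured. A gene's value is the mean of its measured spots. The dyes were never swapped, so conditioning and dye cannot be told apart. With 1 array per time, a value at a single time has no error between animals. The spread between different spots of the same gene is the only error within an array. For member genes with at least 2 measured spots its pooled SD was 0.21, 0.16, 0.15 and 0.40 at 1, 2, 4 and 6 h.

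Some of these genes had no ratio on some arrays, as exact zeros were treated as not measured. At 1 h 35.1% of member spots had no ratio, against 20.2% of all spots with 1 gene, and at 2, 4 and 6 h the member share was 7.35%, 4.08% and 9.39%, against 6.49%, 4.66% and 7.13%. A value on all 4 arrays was present for 110 member genes, on 3 for 19, on 2 for 3 and on 1 for 1, and Cxcl16 had none. Only 34 member genes had 1 spot, 89 had 2 and 11 had 3. Near-identical copies, namely Ccl21b and Ccl21c, Ccr1l1 and Ccr1, Il11ra2 and its relatives, and Tnfrsf22 and Tnfrsf23, may share signal, so that the values of each are uncertain.

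The clearest pattern among the members was at 6 h, and it followed the accession with which a spot was annotated, a split made after the values were seen. Spots annotated with a RefSeq transcript (accessions that begin with NM) made up 110 of the 245. At 6 h, 85 of their 105 measured values were above 0, with a median of 0.26, where 60.9% of all RefSeq spots of the array were above 0. Of the spots with another accession, 53 of 117 were above 0, with a median of -0.074, against 45.8% of all such spots. The RefSeq spots of the members passed 2-fold in the positive direction 49 times (46.7%, against 18.2% over the array) and in the negative direction 6 times (5.71%, against 7.62%). The other spots passed it 15 times in the positive direction (12.8%, against 10.5%) and 24 times in the negative (20.5%, against 14.3%). At 1, 2 and 4 h the order was the opposite and smaller, with medians of -0.037, -0.031 and -0.0046 for RefSeq spots and 0.036, 0.025 and 0.015 for the others. Over all spots with 1 gene the order was the same. Their medians were -0.030, -0.033 and -0.010 for RefSeq spots and 0.012, 0.014 and 0.0050 for the others.

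**Figure D1:**
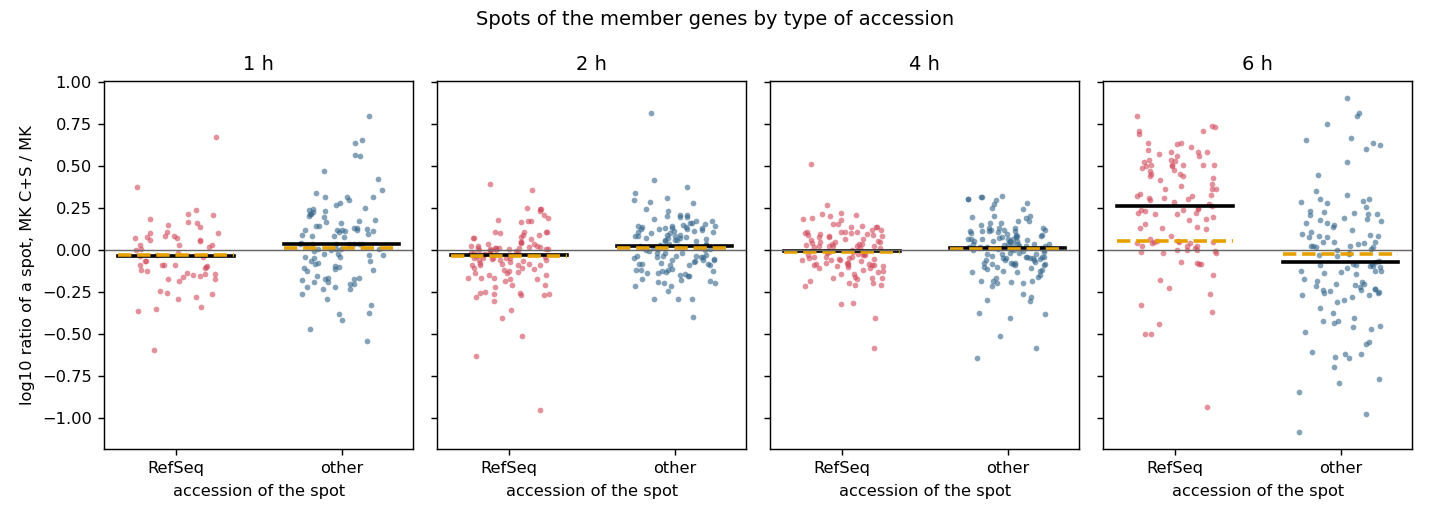
Log10 ratios of the members' spots (y axis) at each time, 1 point per measured spot, split by whether the annotated accession is a RefSeq transcript or another. Black lines are the members' medians and dashed yellow lines the medians of all spots of that type. At 6 h the RefSeq spots have a median of 0.26 and the others one of -0.074, while at the earlier times the medians lie within 0.037 of 0.

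The same split was seen within genes. Of 72 member genes measured on both types of spot at 6 h, 54 were higher on the RefSeq spot, with a median difference of 0.31. Over all 1588 such genes of the array, 1145 were (72.1%), with a median difference of 0.16. In 9 member genes the RefSeq spot passed 2-fold above 0 and the other passed it below 0, and in 0 the reverse. Over the 1588 genes these counts were 77 and 6. Both types passed it above 0 in 5 member genes and below 0 in 0, beside 36 and 8 of the 1588. For Ccl2, the monocyte attractant, the RefSeq spot gave 0.59 and the other -0.79. For Cxcl1, a neutrophil attractant, they gave 0.57 and -0.77, and for Il3, a growth factor of blood cell precursors, 0.69 and -0.85. Their means at 6 h, -0.10, -0.099 and -0.078, therefore describe neither spot. Pearson's correlation between both types of spot across member genes, which share an array and its dyes, was 0.37, 0.15, -0.0038 and 0.025 at 1, 2, 4 and 6 h (n = 33, 77, 81 and 72 genes).

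**Figure D2:**
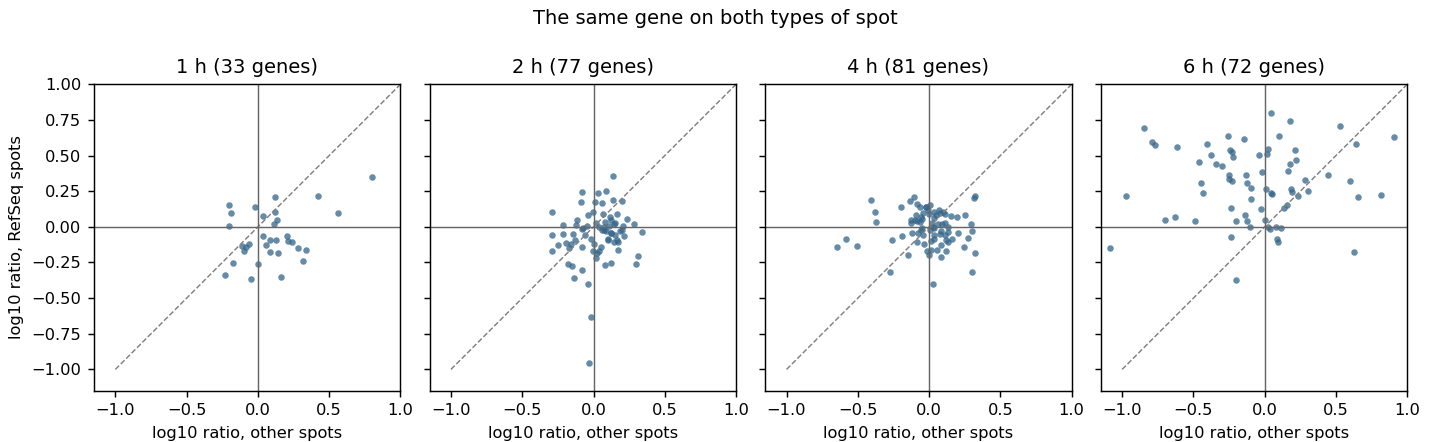
Member genes measured on both types of spot, with the log10 ratio of the RefSeq spots on the y axis and of the other spots on the x axis, 1 panel per time and 1 point per gene. The dashed line marks equal values. At 6 h, 54 of 72 genes lie above it (72.1% of all such genes of the array do), and at 1 h 6 of 33 do (37.0%).

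Different spots of a member gene had the same sign in 21 of 43, 48 of 89, 46 of 97 and 36 of 86 genes at 1, 2, 4 and 6 h, where 50.9%, 49.4%, 52.1% and 47.8% of all genes with several spots did. All measured spots of a gene passed 2-fold in the same direction in 0 genes at 1, 2 and 4 h. At 6 h they did so in 7, each above 0. These were Il12rb1 (0.64 and 0.58), a chain of the interleukin 12 receptor, Il13ra2 (0.91 and 0.63), a decoy receptor of interleukin 13, Il1rl2 (0.67 and 0.33), the interleukin 36 receptor, the T cell growth factor Il2 (0.60 and 0.32), Il22 (0.45 and 0.36), Il9 (0.71 and 0.53) and the lymph node chemokine Ccl21b (0.51 and 0.51). Of all 2402 genes with at least 2 measured spots at 6 h, 55 did so above 0 and 22 below. In 10 other member genes of 86, spots passed 2-fold in opposite directions at 6 h, as in 136 of the 2402. Spots with the same accession had the same sign in 5 of 8, 8 of 14, 11 of 14 and 7 of 14 member pairs at 1, 2, 4 and 6 h, beside 51.1%, 55.8%, 53.1% and 62.3% of all such pairs.

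Counted by gene, 15 of 112 measured members differed by 2-fold or more at 1 h, or 13.4%, against 8.47% of all genes. Of these 10 were positive (5.12% of all genes were) and 5 negative (3.35%). At 2 h 7 of 132 did (5.30%, against 6.58%), 4 positive (2.44%) and 3 negative (4.14%). At 4 h 5 of 130 did (3.85%, against 7.07%), 0 positive (2.49%) and 5 negative (4.58%). At 6 h 39 of 130 did (against 21.9% of all genes), 26 positive (against 10.2%) and 13 negative (against 11.7%). On at least 1 array, 57 of 133 members reached 2-fold (42.9%, against 32.5% of all genes). The members' medians were 0.011, 0.0073, 0.0085 and 0.050, beside 0.0013, -0.00074, -0.00095 and -0.0062 for all genes. Values above 0 were found in 59, 69, 68 and 78 member genes, where 50.4%, 49.7%, 49.8% and 48.6% of all genes were. With RefSeq spots alone, 6 h gave 45 positive and 4 negative of 94 genes and a median of 0.27, and with other spots alone 13 positive and 21 negative of 108 and a median of -0.071. The 6 h excess of positive members therefore rested on the RefSeq spots. These made up 44.9% of member spots but 28.0% of all spots with 1 gene, so all genes are not a like background for that excess. The part of this share in it, and which type of spot measures its gene more truly, were not tested.

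**Figure D3:**
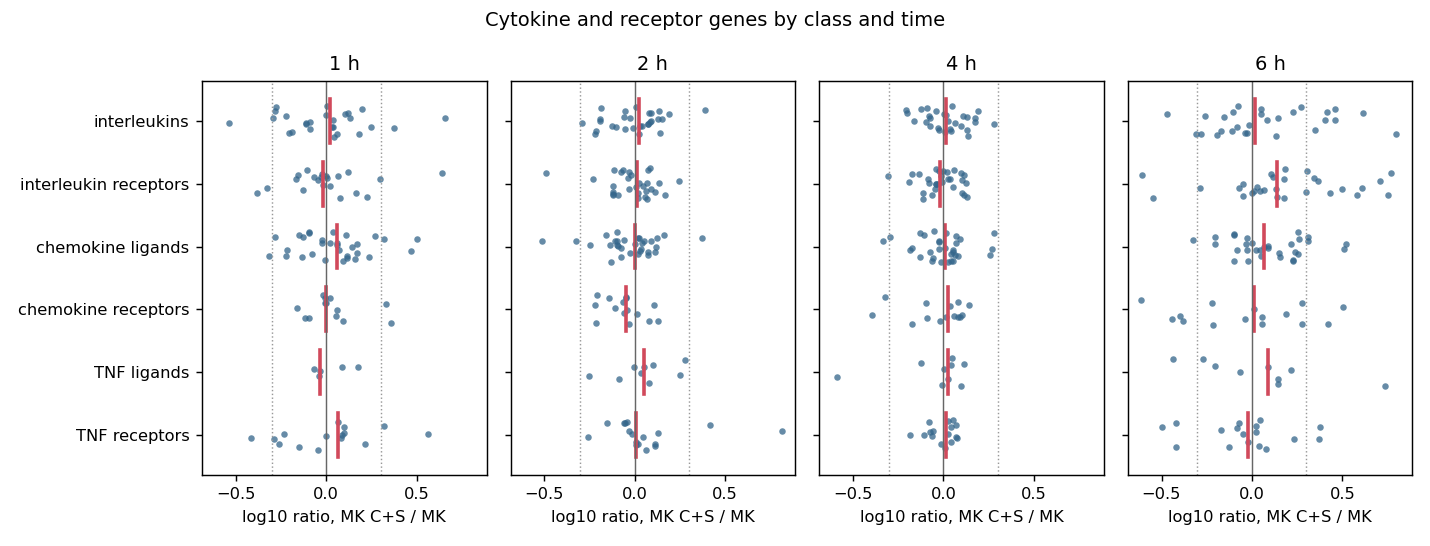
Log10 ratios of the member genes (x axis) by class (y axis) at each time, 1 point per gene with its spots averaged. Red bars are class medians and dotted lines mark a 2-fold difference. Most genes lie inside the dotted lines at 2 and 4 h, and the spread is widest at 6 h, where 39 of 130 genes reach 2-fold.

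Averaging over the times asked which members differed between MK C+S and MK over the whole period, judged against how much the 4 times varied. Of the 110 members with 4 values, 0 were called by limma at an adjusted p of 0.05, as were 0% of all 8553 genes tested. Without adjustment 13 members had a p under 0.05 (11.8%, against 11.4% of all genes), 5 positive (4.26% of all genes were) and 8 negative (7.12%). The lowest adjusted p of a member was 0.416, and the 95% intervals given for single genes are limma's and not adjusted. The same sign on all 4 arrays was found in 26 members, or 23.6%, against 21.8% of all genes, and 13 of them were positive and 13 negative. The slope on hours, which asked for a steady change with time, also called 0 members and 0% of all genes. Without adjustment 19 members had a p under 0.05 (17.3%, against 14.6%), 10 with a positive slope (4.64%) and 9 with a negative one (9.97%), and the lowest adjusted p was 0.131. Without the 4 h array limma called 6 members, Ccr1l1, Cxcl13, Il17a, Il1rapl2, Il6 and Il7r, and 4.84% of all genes. A slope can compare different spots, because the spots measured differed between arrays. Il1rapl2 was measured by its other spot alone at 1 h and by its RefSeq spot alone at 6 h. Cxcl13 was measured by its other spot alone at 1 h and by both at 6 h. With RefSeq spots alone, 14 of 52 members had a positive slope at an unadjusted p under 0.05 (10.6% of all 2532 genes so tested did) and 2 a negative one (6.36%). With other spots alone, 2 of 80 members had a positive one (3.57% of all 6888 genes) and 17 a negative one (12.1%).

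Interleukins had medians of 0.019, 0.026, 0.015 and 0.015 at 1, 2, 4 and 6 h, with 14 of 26, 16 of 29, 17 of 29 and 14 of 28 genes above 0. Of Il1a, Il1b, Il1rn, Il18 and Il33, from the interleukin 1 family that starts fever and inflammation, Il1a alone passed 2-fold, at 2 h. Il1b, measured by 3 spots, was at 0.038, 0.091, 0.096 and 0.27 at 1, 2, 4 and 6 h. It was above 0 on each array, with a mean of 0.12 (SD 0.10, n = 4 times) that did not pass limma's test (adjusted p = 0.466). At 6 h its spots gave 0.45, 0.30 and 0.050. Il1a, the other agonist, was at -0.11, 0.39, 0.025 and -0.19 at 1, 2, 4 and 6 h, and its high 2 h value rested on 1 spot. The antagonist Il1rn was at 0.12, -0.053, 0.044 and -0.17 at 1, 2, 4 and 6 h, with spots at 0.30 and -0.64 at 6 h. Il33, an alarm signal that astrocytes and oligodendrocytes make, was at 0.043, 0.14, 0.17 and 0.085 at 1, 2, 4 and 6 h, positive on all arrays on its only spot, with a mean of 0.11 (SD 0.059, n = 4 times). Il18, which inflammasomes activate, was at -0.21, 0.0078, 0.015 and 0.13 at 1, 2, 4 and 6 h, lowest at 1 h, where its spots gave -0.049 and -0.36.

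Il6, a cytokine of the acute phase that neurons and glia can release, was at 0.20, 0.026, -0.13 and -0.47 at 1, 2, 4 and 6 h. Each later array gave a lower value, with a slope of -0.13 log10 units per h (SE 0.027, limma's adjusted p = 0.136). Its only spot carries a GenBank accession that is not RefSeq. Il10, which restrains inflammation, was at 0.18, 0.075, 0.28 and -0.11 at 1, 2, 4 and 6 h, and its spots stood apart at 4 h (0.51 and 0.051) and 6 h (0.28 and -0.50). Both subunits of interleukin 12 were on the array. Il12b was at 0.13, 0.085, 0.17 and 0.35 at 1, 2, 4 and 6 h on 1 spot, positive throughout, with a mean of 0.19 (SD 0.12, n = 4 times) and a 95% interval of 0.039 to 0.33 (adjusted p = 0.427) in limma. Il12a was at -0.28, -0.12, -0.20 and -0.029 at 1, 2, 4 and 6 h, with spots at 0.21 and -0.27 at 6 h, a mean of -0.16 (SD 0.11, n = 4 times) and a 95% interval of -0.30 to -0.016 (adjusted p = 0.432). Both intervals exclude 0 before adjustment, in opposite directions, and neither gene passed over all genes.

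Il15, which maintains natural killer and memory T cells, had the lowest 1 h value of all members. Its spot was at -0.54, -0.19, -0.081 and -0.080 at 1, 2, 4 and 6 h, so that it lay 3.46-fold below MK at 1 h, 1.56-fold below at 2 h and closer to 0 later, with a mean of -0.22 (SD 0.22, n = 4 times) and a 95% interval of -0.43 to -0.014 (adjusted p = 0.434). Il34, a ligand of the receptor Csf1r that neurons make and microglia depend on, was at 0.0036, -0.29, -0.16 and -0.31 at 1, 2, 4 and 6 h. It was close to 0 at 1 h and below it afterwards, with a mean of -0.19 (SD 0.15, n = 4 times) and a 95% interval of -0.35 to -0.027 (adjusted p = 0.43) in limma. Il17a, the cytokine of Th17 cells, was at -0.19, 0.13, 0.11 and 0.80 at 1, 2, 4 and 6 h, and its 6 h value of 6.28-fold was the highest of any member gene at that time. The slope was 0.17 log10 units per h (SE 0.039, limma's adjusted p = 0.145). Il7, a growth factor of lymphocytes, was the highest member at 1 h. It was at 0.66, -0.21, -0.097 and -0.16 at 1, 2, 4 and 6 h, with only 1 spot measured at 1 h, and its sign turned after that array. The class's other 17 members ranged from -0.29 to 0.62 over the arrays, and 6 of them reached 2-fold on any (32.5% of all genes did). These, and the further members named likewise in each class, were picked after their values were seen. At 6 h Il9, a product of T cells, was at 0.62, Il2 at 0.46, Il23a, which maintains Th17 cells, at 0.46, Il1f5, the antagonist of interleukin 36, at 0.42 and Il22, which acts on epithelia, at 0.40. Il21, which helps B cells, was at 0.38 at 1 h. All 6 were positive on the array concerned.

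Interleukin receptors had medians of -0.016, 0.012, -0.017 and 0.14 at 1, 2, 4 and 6 h, with 9 of 21, 16 of 30, 12 of 30 and 22 of 29 genes above 0. Their 6 h median was the highest of the 6 classes. At 6 h their RefSeq spots had 23 of 25 values above 0 (median 0.33) and their other spots 12 of 23 (median 0.0075). Il1r1, the signalling receptor of interleukin 1, was at -0.13, -0.039, -0.17 and -0.0023 at 1, 2, 4 and 6 h, negative on all arrays, but its spots at 6 h were 0.46 and -0.46. Its partner chain Il1rap was at 0.066, 0.084, -0.077 and -0.051 at 1, 2, 4 and 6 h, and Il6st, the shared gp130 chain of the interleukin 6 family, was at 0.056, 0.027 and -0.051 at 2, 4 and 6 h. Averaged over spots, both stayed within 0.084 of 0 on every array that measured them, though the Il1rap spots at 6 h were 0.13 and -0.24. Il1rapl2 was at -0.066, -0.091, 0.053 and 0.71 at 1, 2, 4 and 6 h, and its 6 h value rested on 1 RefSeq spot.

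Il27ra, a receptor chain of interleukin 27, reached 2-fold on 2 arrays. It was at 0.64, 0.017, -0.011 and 0.34 at 1, 2, 4 and 6 h, with spots at 0.47 and 0.22 at 6 h. Il17ra, the common chain for interleukin 17 cytokines, was at 0.23, 0.060, 0.058 and 0.43 at 1, 2, 4 and 6 h, positive on all arrays, with a mean of 0.19 (SD 0.18, n = 4 times) and a 95% interval of 0.011 to 0.38 (adjusted p = 0.434) in limma. Il7r, the interleukin 7 receptor, ran the other way. It was at 0.12, -0.12, -0.30 and -0.61 at 1, 2, 4 and 6 h on 1 spot, with a slope of -0.14 log10 units per h (SE 0.027, limma's adjusted p = 0.131), the lowest adjusted slope p of any member, and it lay 2-fold or more below 0 at 4 and 6 h.

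Some receptors had extreme values on 1 array. Il13ra2 was at 0.11, 0.10 and 0.77 at 2, 4 and 6 h, or 5.87-fold at 6 h, where its 2 spots agreed. Il15ra, which presents interleukin 15, was at -0.12, -0.042 and 0.75 at 2, 4 and 6 h on 1 spot. Il4ra, shared by the receptors of interleukins 4 and 13, was at -0.11, -0.042 and -0.55 at 2, 4 and 6 h. Il9r, the interleukin 9 receptor, was at -0.49, -0.19 and -0.29 at 2, 4 and 6 h, with spots at -0.033 and -0.95 at 2 h. Il17rd, an inhibitor of fibroblast growth factor signals, was at -0.38, 0.13 and 0.037 at 1, 2 and 4 h. These 5 genes lacked a value on 1 array and were not part of the fit to genes with 4 values. The class's other 19 members ranged from -0.33 to 0.61 over the arrays, and 6 of them reached 2-fold on any (32.5% of all genes did). At 6 h these were Il12rb1 at 0.61, Il1r2, a decoy for interleukin 1, at 0.58, Il1rl2 at 0.50, the interleukin 21 receptor Il21r at 0.36 and Il18rap, a chain of the interleukin 18 receptor, at 0.31. Il13ra1, measured at 1 h alone, was at -0.33.

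Chemokine ligands had medians of 0.060, 3.1e-05, 0.010 and 0.065 at 1, 2, 4 and 6 h, with 18 of 31, 16 of 31, 16 of 31 and 20 of 31 genes above 0. The CXC ligands Cxcl1 and Cxcl2, which attract neutrophils, had low values at 2 h. Cxcl1 was at 0.037, -0.51, -0.33 and -0.099 at 1, 2, 4 and 6 h, and its 2 h value of 3.26-fold below MK was measured by 1 spot, a RefSeq spot. Cxcl2 was at 0.47, -0.32, 0.069 and 0.0028 at 1, 2, 4 and 6 h, and the spots at 2 h gave -0.019 and -0.63. The high 1 h value of Cxcl2 came from its other spot alone. Cxcl5, of the same group, was at -0.0042, 0.038, 0.27 and 0.15 at 1, 2, 4 and 6 h, with spots at 0.53 and -0.23 at 6 h. Cxcl1 had a mean of -0.23 (SD 0.24, n = 4 times) and did not pass limma's test (adjusted p = 0.442). Cxcl10, which interferon induces, was at 0.060, 0.16, -0.026 and 0.043 at 1, 2, 4 and 6 h, with spots at 0.33 and -0.25 at 6 h, and Cxcl12, which guides migrating neurons and signals to Cxcr4, was at -0.095, -0.14, -0.13 and 0.31 at 1, 2, 4 and 6 h.

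Among the CC ligands, the macrophage inflammatory proteins Ccl3 and Ccl4 were positive at 1 h. Ccl3 was at 0.32, 3.1e-05, 0.28 and -0.21 at 1, 2, 4 and 6 h on 1 spot. Ccl4 was at 0.50, -0.098, 0.040 and -0.031 at 1, 2, 4 and 6 h, with spots at 0.80, 0.67 and 0.030 at 1 h. The values of both genes at 6 h were below 0. Ccl5, a T cell attractant, was at 0.17, -0.13, 0.014 and 0.22 at 1, 2, 4 and 6 h, and Ccl2 was at -0.025, -0.026, -0.11 and -0.10 at 1, 2, 4 and 6 h. Ccl7, another monocyte attractant, was at 0.12, 0.37, 0.092 and 0.26 at 1, 2, 4 and 6 h and above 0 on all arrays. It was the member gene with 2 or more spots and at least 6 values whose measured values all had the same sign, with 6 values from 0.066 to 0.37. Its mean was 0.21 (SD 0.13, n = 4 times), with a 95% interval of 0.055 to 0.37 (adjusted p = 0.427) in limma. Ccl1 was also positive throughout, at 0.16, 0.076, 0.26 and 0.065 at 1, 2, 4 and 6 h, with spots at 0.50 and -0.37 at 6 h, and a mean of 0.14 (SD 0.090, n = 4 times). Ccl24, an attractant of eosinophils, was at 0.070, -0.092, -0.17 and -0.32 at 1, 2, 4 and 6 h, where the spots ran apart, the RefSeq spot to 0.051 and the other to -0.70 at 6 h. The class's other 20 members ranged from -0.31 to 0.52 over the arrays, and 4 of them reached 2-fold on any (32.5% of all genes did). These were Cxcl13, which draws B cells into follicles, at 0.52 at 6 h, Ccl21b at 0.51, the interferon target Cxcl11 at 0.31, and Ccl27a, known from skin, at -0.31 at 1 h.

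Chemokine promoters are well-known targets of NF-kB, a transcription factor that cytokine receptors activate, and of AP-1. Promoter windows from RefSeq (build GRCm38.p6, 250 bases before to 50 after the start) matched 102 of the 134 member genes by symbol. The kB letters GGGNNNTTCC, searched on both strands, were found for 17 member genes (16.7%), against 6.93% of the 8515 genes of the array with a window. By window, the shares were 15.6% of 122 and 5.88% of 10754. The AP-1 letters TGANTCA, which read the same on both strands, were found for 23 (22.5%, against 8.14%). These 2 sets of letters cannot overlap each other, and a gene was counted once for each. The median log ratio of the 17 genes was 0.037, -0.058, -0.041 and -0.0023 at 1, 2, 4 and 6 h. It was -0.0026, 0.019, 0.022 and 0.070 for the members with a window and no match. Some of the matches are shown, for 5 members with extreme values and for Cxcl10, a well-known target that passed 2-fold on no array, with the match in capitals and 12 bases on either side, on the gene's strand.
Cxcl1, chr5:90891162-90891195, plus strand: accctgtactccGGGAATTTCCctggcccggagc
Cxcl2, chr5:90903790-90903823, plus strand: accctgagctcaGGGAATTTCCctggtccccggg
Cxcl10, chr5:92349027-92349060, minus strand: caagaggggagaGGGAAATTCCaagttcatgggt
Il6, chr5:30013058-30013091, plus strand: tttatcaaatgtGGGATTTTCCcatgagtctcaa
Ccr3, chr9:124021780-124021813, plus strand: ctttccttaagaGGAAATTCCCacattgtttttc
Tnfrsf25, chr4:152115704-152115737, plus strand: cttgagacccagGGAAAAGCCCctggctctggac
The Ccr3 and Tnfrsf25 matches read on the opposite strand, so that their capitals are the reverse complement of the letters searched. Cxcl1 and Cxcl2, which lie close together on chromosome 5, were the lowest and the third lowest members at 2 h, and Tnfrsf25 was the highest. Over all members at 2 h, 6 of 17 with the kB letters were above 0 and 47 of 84 without them, a difference that was not tested. The order was the opposite at 1 h, with 9 of 15 and 33 of 70. At 4 h the counts were 7 of 17 and 48 of 83, and at 6 h 8 of 17 and 54 of 82. For the AP-1 letters at 2 h, 12 of 23 with them and 41 of 78 without them were above 0.

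Chemokine receptors had medians of 0.0016, -0.050, 0.024 and 0.0092 at 1, 2, 4 and 6 h, with 7 of 13, 4 of 15, 8 of 14 and 8 of 15 genes above 0. Of 13 receptors with a fitted slope on hours, 5 had one above 0. Among these Cxcr3 was at -0.16, -0.046, 0.057 and 0.19 at 1, 2, 4 and 6 h, with spots at 0.63 and -0.26 at 6 h. Several other receptors had lower values on the later arrays. Ccr9, the receptor that guides lymphocytes to the gut, was at -0.0047, -0.22, -0.32 and -0.40 at 1, 2, 4 and 6 h, with a mean of -0.23 (SD 0.17, n = 4 times) and a 95% interval of -0.41 to -0.056 (adjusted p = 0.427) in limma. The RefSeq spot stood apart from the rest, which gave -0.62 and -0.64 at 6 h, while it gave 0.066. Ccr3, the eotaxin receptor, was at 0.057, -0.22, -0.39 and -0.38 at 1, 2, 4 and 6 h, and again the spots were apart at 6 h (0.21 and -0.97). Ccr1l1, a close relative of Ccr1, was at 0.091, -0.11, -0.17 and -0.62 at 1, 2, 4 and 6 h, the lowest member at 6 h, with spots at -0.15 and -1.08 and a slope of -0.13 log10 units per h (SE 0.030, limma's adjusted p = 0.152).

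Cxcr2, the receptor of Cxcl1, Cxcl2 and Cxcl5, had a negative mean over its spots on all arrays. It was at -0.12, -0.14, -0.097 and -0.22 at 1, 2, 4 and 6 h, with a mean of -0.14 (SD 0.055, n = 4 times) and a 95% interval of -0.27 to -0.023 (adjusted p = 0.427) in limma. Its spots gave 0.054, -0.046 and -0.30 at 4 h and 0.044 and -0.49 at 6 h. Cxcr4, the receptor of Cxcl12, was at 0.0016, -0.21, 0.11 and -0.44 at 1, 2, 4 and 6 h, with spots at 0.051 and -0.94 at 6 h. Ccr2, the receptor of Ccl2 on monocytes, had no value at 1 h and was at -0.050, 0.093 and 0.42 at 2, 4 and 6 h, with spots at 0.80 and 0.043 at 6 h. The class's other 9 members ranged from -0.22 to 0.50 over the arrays, and 3 of them reached 2-fold on any (32.5% of all genes did). These were Ccr7, the receptor of Ccl21, at 0.50 at 6 h and, at 1 h, Cxcr5, the receptor of Cxcl13, at 0.36 and Cxcr6 at 0.33.

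TNF superfamily ligands had medians of -0.031, 0.051, 0.028 and 0.089 at 1, 2, 4 and 6 h, with 2 of 5, 6 of 9, 6 of 9 and 5 of 9 genes above 0. Tnfsf13 (APRIL, a survival factor of plasma cells) had the lowest unadjusted p of all members in the mean over times. Its spot was at -0.040, -0.26, -0.59 and -0.44 at 1, 2, 4 and 6 h, the lowest member at 4 h, where it was 3.86-fold below MK. The mean was -0.33 (SD 0.24, n = 4 times), with a 95% interval of -0.55 to -0.11 (adjusted p = 0.416) in limma. Tnfsf13b (BAFF), which shares receptors with it, was also negative on all arrays, at -0.065, -0.0045, -0.12 and -0.20 at 1, 2, 4 and 6 h, though its spots differed at 6 h (0.15 and -0.56). Tnfsf14 was at 0.18, 0.081, 0.047 and 0.15 at 1, 2, 4 and 6 h, but its spots at 6 h were 0.54 and -0.25. Tnfsf8 was at -0.031, 0.051, 0.10 and 0.14 at 1, 2, 4 and 6 h, with spots at 0.31 and -0.21 at 2 h. Tnfsf10 (TRAIL), which triggers cell death, was at 0.28, 0.0011 and -0.27 at 2, 4 and 6 h. The class's other 4 members ranged from -0.088 to 0.73 over the arrays, and 1 of them reached 2-fold on any (32.5% of all genes did). It was Tnfsf11 (RANKL), known from bone and lymph nodes, at 0.73 at 6 h.

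TNF receptors had medians of 0.066, 0.0073, 0.017 and -0.021 at 1, 2, 4 and 6 h, with 8 of 15, 10 of 17, 9 of 16 and 8 of 17 genes above 0. Both receptors of TNF itself stayed under 2-fold on every array. Tnfrsf1a was at -0.046, 0.0055, 0.043 and 0.040 at 1, 2, 4 and 6 h, and Tnfrsf1b, the form found on microglia, was at -0.23, -0.033, -0.075 and -0.13 at 1, 2, 4 and 6 h, negative on all arrays. Tnfrsf25, a death domain receptor of T cells, had the highest 2 h value of the members, 6.55-fold above MK, and negative values on the other arrays. It was at -0.29, 0.82, -0.18 and -0.42 at 1, 2, 4 and 6 h on 1 spot, with a mean of -0.019 (SD 0.57, n = 4 times). Tnfrsf18 (GITR, on regulatory T cells) was positive on all arrays and past 2-fold on 2. It was at 0.32, 0.11, 0.075 and 0.37 at 1, 2, 4 and 6 h, with 3 spots at 0.56, 0.53 and 0.021 at 6 h, a mean of 0.22 (SD 0.15, n = 4 times) and a 95% interval of 0.056 to 0.38 (adjusted p = 0.427) in limma.

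Tnfrsf12a, the receptor of the TWEAK cytokine, was at -0.15, -0.26, 0.043 and -0.50 at 1, 2, 4 and 6 h, with a mean of -0.22 (SD 0.23, n = 4 times) and a 95% interval of -0.43 to -0.0016 (adjusted p = 0.438) in limma. Tnfrsf11a (RANK) was at 0.22, 0.42, 0.072 and -0.074 at 1, 2, 4 and 6 h, positive until 4 h. Tnfrsf19 was low at 1 h alone, at -0.42, -0.015, -0.062 and -0.050 at 1, 2, 4 and 6 h, with only 1 of its spots measured there. Tnfrsf17 (BCMA, on plasma cells) was at 0.56, -0.15, 0.028 and 0.045 at 1, 2, 4 and 6 h, where again 1 spot gave the 1 h value. The class's other 9 members ranged from -0.42 to 0.37 over the arrays, and 2 of them reached 2-fold on any (32.5% of all genes did). These were Tnfrsf11b, a soluble decoy for Tnfsf11, at -0.42 and Tnfrsf8 (CD30) at 0.37, both at 6 h.

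**Figure D4:**
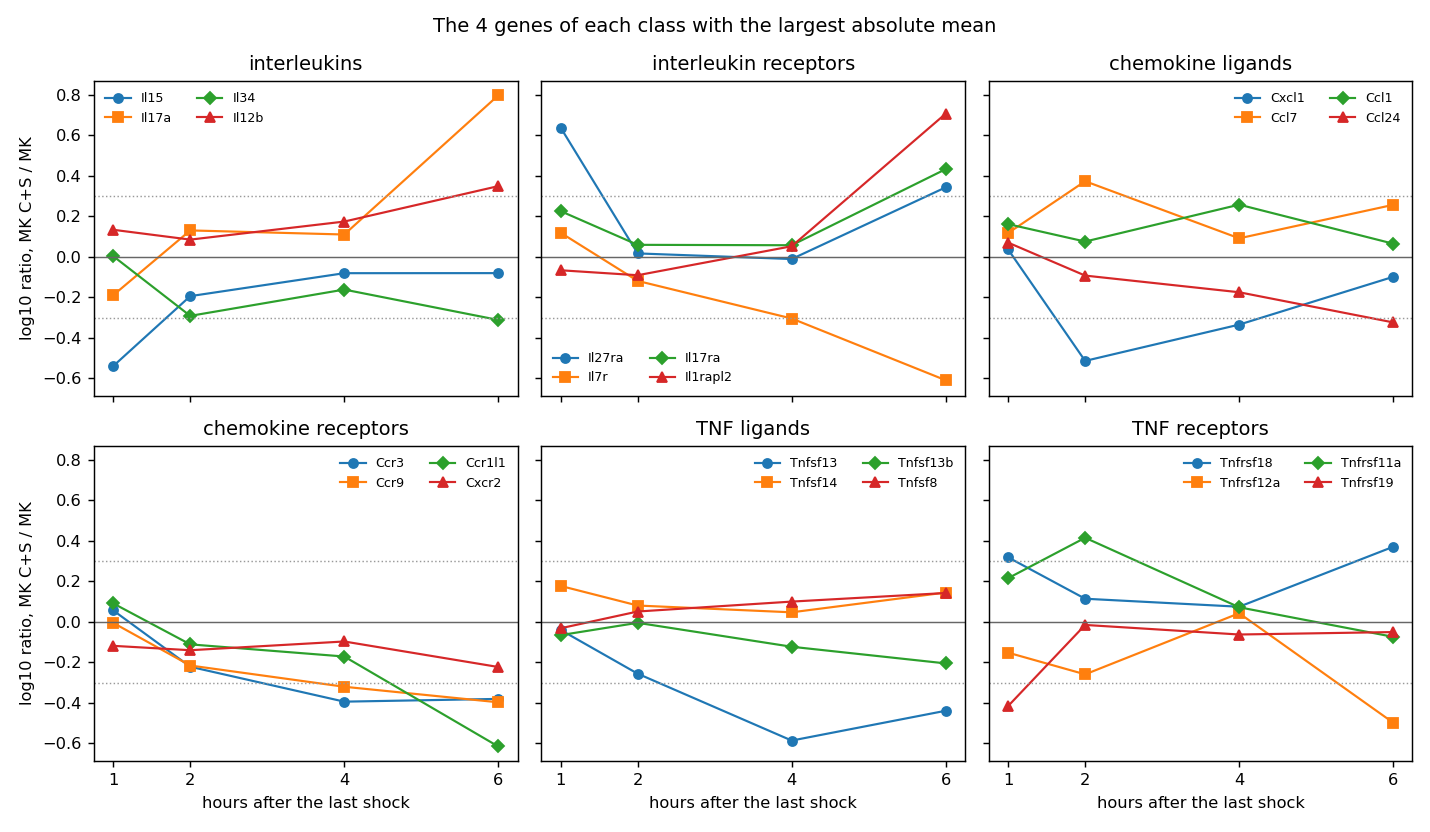
Log10 ratios (y axis) against hours after the last shock (x axis) for the 4 genes of each class with the largest absolute mean over the arrays, 1 point per array. Dotted lines mark a 2-fold difference and lines join the arrays of a gene. Tnfsf13, Ccr3 and Ccr9 lie below 0 from 2 h on, Il7r and Ccr1l1 reach -0.61 and -0.62 at 6 h, and Il17a and Il1rapl2 reach 0.80 and 0.71.

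Genes of the same pathways outside the naming pattern could give no call, as limma called 0% of all genes in the mean and in the slope. Of 83 listed cytokines, receptors, JAK, STAT, SOCS and TRAF genes, 71 were on the array, and 31 of 63, 40 of 67, 41 of 70 and 30 of 70 measured genes were above 0 at 1, 2, 4 and 6 h, with medians of -0.0023, 0.024, 0.045 and -0.020 at 1, 2, 4 and 6 h. At 6 h 6 of 70 passed 2-fold in the positive direction and 7 in the negative, against 10.2% and 11.7% of all genes. In the mean over times limma called 0 of the 60 with 4 values, and in the slope 0 of 60. Tnf itself was at 0.0033, -0.076, 0.053 and -0.054 at 1, 2, 4 and 6 h, and the fractalkine gene Cx3cl1 at 0.015, 0.0059, 0.070 and -0.14 at 1, 2, 4 and 6 h. Socs3, an inhibitor that cytokines induce, was at 0.063, -0.22, -0.31 and -0.37 at 1, 2, 4 and 6 h, and Tgfb1 at 0.060, 0.28, 0.16 and 0.70 at 1, 2, 4 and 6 h. Of 28 listed response genes of cytokines and interferon, 26 were on the array, with medians of 0.027, -0.018, 0.015 and 0.042 at 1, 2, 4 and 6 h, and limma called 0 of 22 in the mean and 0 of 22 in the slope. Nfkbia, a fast target of NF-kB, was at -0.057, -0.088, -0.095 and 0.23 at 1, 2, 4 and 6 h, and Ptgs2, the inducible prostaglandin enzyme, at -0.14, -0.14, 0.11 and -0.042 at 1, 2, 4 and 6 h. These 2 lists and the marker lists were written with earlier results of these data known.

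Markers of cells that make or receive these signals were read on the same scale, and fewer cells of a type and less RNA per cell cannot be told apart in such samples. For microglia, 9 of 13, 6 of 13, 10 of 13 and 9 of 13 measured genes were above 0, with medians of 0.088, -0.059, 0.11 and 0.11 at 1, 2, 4 and 6 h (range -0.27 to 0.29). For astrocytes, 3 of 8, 4 of 8, 6 of 8 and 7 of 8 measured genes were above 0, with medians of -0.039, 0.032, 0.050 and 0.14 at 1, 2, 4 and 6 h (range -0.32 to 0.50). For neurons, 3 of 7, 5 of 7, 3 of 7 and 2 of 7 measured genes were above 0, with medians of -0.0019, 0.018, -0.0053 and -0.093 at 1, 2, 4 and 6 h (range -0.35 to 0.40). For oligodendrocytes, 2 of 6, 5 of 6, 3 of 6 and 4 of 6 measured genes were above 0 at 1, 2, 4 and 6 h. Their medians were -0.064, 0.066, 0.00062 and 0.072 (range -0.36 to 0.19). The member median was at its highest at 6 h. So were the astrocyte, oligodendrocyte, B cell and endothelial medians, while the microglial, neuronal, T cell and choroid plexus medians were not. The list for other myeloid cells holds Ccr2, itself a member and at 0.42 at 6 h. Its median is therefore left out of this comparison. For T cells, 3 of 8, 3 of 10, 8 of 11 and 6 of 11 measured genes were above 0, with medians of -0.033, -0.060, 0.085 and 0.036 at 1, 2, 4 and 6 h (range -0.45 to 0.39). For B cells, 4 of 7, 4 of 7, 5 of 6 and 3 of 6 measured genes were above 0, with medians of 0.0040, 0.010, 0.049 and 0.089 at 1, 2, 4 and 6 h (range -0.14 to 0.56). For other myeloid cells, 5 of 9, 6 of 10, 3 of 10 and 6 of 10 measured genes were above 0, with medians of 0.018, 0.088, -0.041 and 0.094 at 1, 2, 4 and 6 h (range -1.33 to 0.52). For endothelial and mural cells, 3 of 11, 2 of 11, 1 of 11 and 4 of 11 measured genes were above 0, with medians of -0.11, -0.16, -0.12 and -0.041 at 1, 2, 4 and 6 h (range -0.81 to 0.73). Markers of the choroid plexus, a neighbouring epithelium, had 6 of 7, 4 of 8, 4 of 8 and 4 of 8 genes above 0 at 1, 2, 4 and 6 h. Their medians were 0.49, -0.014, -0.0011 and -0.025 (range -1.27 to 0.71). At 1 h 6 of 7 were past 2-fold in the positive direction. Ttr had no value at 1 h and was at -0.66, -1.27 and -0.12 at 2, 4 and 6 h, and Kl was negative on all arrays. On the 1 h array the 3 highest members were Il7, Il27ra and Tnfrsf17, and the 3 lowest were Il15, Tnfrsf19 and Il17rd. The part of any of these cell types in the members' values was not tested. As the values are ratios, they do not show which markers, those of CA1 neurons included, were present at all.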

How the data were processed

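CA1 RNA of MK and MK C+S mice was hybridised to 4 arrays with 2 colours, 1 per time. The authors deposited 1 value per spot and array, used here as a log10 ratio; the base, the direction and the centring are not stated, and the scanner, software and normalization are steps not given in the sources used here. Each deposited column had a median of 0. Per the labels, red held MK C+S on each array, so a positive value was read as likely higher in MK C+S; base and direction stay unknown.

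Exact zeros, which made up 22.7%, 9.34%, 7.39% and 10.0% of spots at 1, 2, 4 and 6 h, were taken as not measured. Columns were centred on the median of measured spots, and the spots of a gene were averaged. Symbols came from GEO's platform annotation, under which 13738 spots had 1 gene, 52 several and 2491 none. The 3 spots that match the patterns but carry several genes were left out. At each time a 2-fold size was counted without a test, because there was 1 array. Both the mean over times and the slope were fitted to all 8553 genes with 4 values by limma 3.58.1 in R 4.3.3, with Benjamini-Hochberg adjustment at 0.05, where the spread between times is the error. The fit was tested on simulated data. Both the number of arrays and the disagreement between spots limit the precision.

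Genes described singly were the 4 of each class with the largest absolute mean, the 3 highest and 3 lowest at each time, those past 2-fold the same way on 2 or more arrays, and a list of well-known members. The members and all lists were chosen with earlier results of these data known, and the split by accession after its values were seen. Alternatives covered the size threshold, centring, spot averaging, zeros, array scaling, a running median over 51 spots, the log base, array weights, genes on 3 or 4 arrays, log2 of hours, each array left out, and the accession type.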

Additional observations from a re-analysis of the deposited data

How the results depend on the processing

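The counts past 2-fold at 1, 2, 4 and 6 h (15, 7, 5 and 39 genes) became 36, 24, 16 and 67 at 1.5-fold and 5, 3, 1 and 16 at 3-fold. If the values were log2 they would be 0 at every time, and as natural logs 0, 1, 0 and 5. Counting each spot gave 24, 14, 17 and 94. Keeping exact zeros gave 3 at 2 h, scaling by the median absolute deviation gave 9 at 4 h, and removing a running median gave 4 at 2 h, 2 at 4 h and, at 6 h, 31 with 17 positive and 14 negative. With RefSeq spots alone, an alternative chosen after seeing the data, the 1 h count was 6 and the medians were -0.064, -0.038 and 0.27 at 1, 2 and 6 h. With other spots alone, the 4 h count was 12 and these medians were 0.038, 0.028 and -0.071. The cause was not tested.

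In the mean over times limma called 0 members under every alternative run. For the slope, leaving out 1 array gave 0 to 6 members. The 6, called without the 4 h array when 4.84% of all genes were, were Ccr1l1, Cxcl13, Il17a, Il1rapl2, Il6 and Il7r. Of 55 genes described by the rule, 17 had a mean that changed sign without 1 array. No pairing beyond the array itself was possible because there are no replicate numbers to pair by. Each log ratio already sets MK C+S against MK on its own array, and limma's mean over times is the test of those 4 pairs.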

Other observations

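Ligands and their receptors were set side by side, with pairs picked after their values were seen and no test made. At 6 h Tnfsf11 was at 0.73, its receptor Tnfrsf11a at -0.074 and its decoy Tnfrsf11b at -0.42. Il17a and its receptor Il17ra were both positive, at 0.80 and 0.43. Il9 was at 0.62 and Il9r at -0.29. Cxcl13 was at 0.52 and Cxcr5 at -0.22, while Cxcl12 was at 0.31 and Cxcr4 at -0.44. Ccl21b was at 0.51 and its receptor Ccr7 at 0.50. Tnfsf13 and Tnfsf13b, at -0.44 and -0.20, stood beside their receptor Tnfrsf17 at 0.045. Pairs thus had the same sign in some cases and opposite signs in others. The type of spot differed between these genes. At 6 h Tnfsf11, Ccl21b and Ccr7 were measured by RefSeq spots alone, and Tnfrsf11a and Tnfrsf11b by other spots alone. RefSeq spots ran higher at 6 h. The signs in the Tnfsf11 and Ccl21b pairs therefore cannot be told apart from the type of spot. Il9 was above 0 on both types (0.71 and 0.53), and Il9r was below 0 on both (-0.37 and -0.20). On other spots, Il17a and Il17ra were at 0.80 and 0.65, and Cxcl13 and Cxcr5 at 0.82 and -0.22. The spots of Tnfrsf17 (0.32 and -0.23) and of Cxcr4 (0.051 and -0.94) differed in sign.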
